A study of Mus musculus with 24 samples.

Results

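The genes Cmpk2, Rsad2, 9330175E14Rik, Parp12 and Ly6e are 5 interferon-stimulated genes grouped for their response in the mouse epithelial line C57epi.1. They were taken by gene symbol from the platform annotation, which gave 6 of the 28853 probe sets on the array and 5 of the 19938 genes with a probe set of a single symbol. They were chosen on the change with an inflammatory supernatant in C57epi.1, so that change is given as a description, with no test. They were grouped as weakly induced in C57epi.1. On the values behind that grouping, Cmpk2, Parp12 and 9330175E14Rik stayed within 0.5 log2 units of media there, which is no separate evidence for the name. Ly6e was 9.13-fold higher and Rsad2 was 77-fold higher in C57epi.1, so the name does not describe Rsad2. For Ly6e it holds only beside Bm12.4, where the rise was 6.73 log2 units, against 3.19 in C57epi.1 and 1.99 in macrophages.

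Total RNA of 24 samples was hybridised to Affymetrix arrays, 4 for each of 6 groups: supernatant and media groups of 3 kinds of cell. C57epi.1 is an epithelial line made from C57BL/6 upper reproductive tract, and Bm12.4 is its counterpart from mice of the strain B6(C)-H2-Ab1bm12/KhEgJ. Bone marrow from C57BL/6 femurs, cultured with GM-CSF, gave the macrophages. The supernatant was 33% (v/v) conditioned RPMI from a CD4 T cell clone specific for Chlamydia held with an infected epithelial monolayer, adjusted to 4 ng/ml interferon-gamma, and the media groups had RPMI alone. Each epithelial strain is represented by a single line, so line and strain cannot be told apart, nor can the shares of interferon-gamma and of other factors in the supernatant.

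Interferons bind receptors that act through Jak kinases and Stat proteins, and the factors they switch on bind short DNA elements, the interferon-stimulated response element and the gamma-activated site. Cmpk2 encodes a mitochondrial nucleoside monophosphate kinase. Rsad2 encodes viperin, a radical SAM enzyme that converts CTP into a chain terminator of viral RNA synthesis. Parp12 encodes a mono-ADP-ribosyltransferase that restricts several RNA viruses. Ly6e encodes a GPI-anchored surface protein that limits the entry of coronaviruses. RefSeq lists 9330175E14Rik as a long non-coding RNA, and its function is not described here.

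Rsad2 and Cmpk2 lie next to each other on chromosome 12 and are read away from each other, on the minus and the plus strand. The 250 bases before the start of each, from RefSeq on GRCm38.p6, are shown because the neighbours parted in C57epi.1, with those of Parp12, which was flat there on chromosome 6. Capitals mark a match to the core of the interferon-stimulated response element, GAAA and again GAAA after any 2 bases, on either strand.
Rsad2, chr12:26456453-26456702, minus strand: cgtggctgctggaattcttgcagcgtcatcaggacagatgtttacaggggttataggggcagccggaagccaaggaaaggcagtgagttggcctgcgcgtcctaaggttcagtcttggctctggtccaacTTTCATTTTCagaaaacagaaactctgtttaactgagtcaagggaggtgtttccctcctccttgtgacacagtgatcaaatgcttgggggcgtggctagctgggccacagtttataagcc
Cmpk2, chr12:26468965-26469214, plus strand: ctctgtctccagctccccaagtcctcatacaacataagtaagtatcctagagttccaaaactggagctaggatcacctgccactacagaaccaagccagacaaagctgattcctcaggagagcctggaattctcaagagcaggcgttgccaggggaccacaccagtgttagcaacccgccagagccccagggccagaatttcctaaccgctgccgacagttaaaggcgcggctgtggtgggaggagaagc
Parp12, chr6:39118350-39118599, minus strand: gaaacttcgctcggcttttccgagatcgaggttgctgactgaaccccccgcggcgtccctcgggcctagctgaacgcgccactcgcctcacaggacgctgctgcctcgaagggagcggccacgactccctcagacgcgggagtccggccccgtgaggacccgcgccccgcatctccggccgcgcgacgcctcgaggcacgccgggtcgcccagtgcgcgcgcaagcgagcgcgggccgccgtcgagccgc
Of the 4 members with an entry in the promoter table, Rsad2 alone held the response element core in this window, with 1 match on the reverse strand whose first base is at −120 from the start. The windows of Cmpk2, Parp12 and 9330175E14Rik held 0 matches, and all 4 held 0 matches to TTCNNNGAA, the gamma-activated site searched on both strands. Of 32851 promoter windows in the table, 2.98% held the response element core and 7.02% held TTCNNNGAA. Of 69 windows of 50 listed interferon-stimulated genes, 26.1% and 8.7% did. Most of the listed genes therefore had no such letters in this window, and the absence of a match says nothing about which factors act on a gene.

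The labelled cell types were checked against markers. The 6 macrophage markers (Ptprc, Csf1r, Itgam, Cd68, Adgre1 and Lyz2) averaged 10.23 to 13.75 on the log2 scale in the macrophage groups and at most 6.98 in the groups of either line. Of 6 epithelial markers, Krt19 averaged 11.32 to 12.12 in the lines and 4.13 to 4.32 in macrophages. Krt14 averaged 10.99 to 11.12 in C57epi.1, 7.24 to 7.95 in Bm12.4 and 4.81 to 4.82 in macrophages. Krt8 was higher in C57epi.1 (9.03 to 9.25), but in Bm12.4 (5.67 to 5.78) it was near macrophages (5.39 to 5.62). Krt18 averaged 5.1 to 5.62, 4.73 to 4.87 and 4.92 to 5.02 in C57epi.1, Bm12.4 and macrophages. Epcam was no higher in the lines than in macrophages (3.67 to 3.75 and 3.71 to 3.79) and Cdh1 was lower (4.3 to 4.5 and 6.65 to 7.25). Of the 5 T cell markers measured, 0 changed with supernatant in either line by limma, and Cd28 fell in macrophages by 1.66. Of 6 dendritic cell markers, 0 were called in either line, and in macrophages Ccr7 rose by 1.4 (adjusted p = 0.00132 by limma) and Clec9a fell by 0.77 (adjusted p = 0.000611 by limma). Ccr7 averaged 7.76 to 9.15 and Clec9a 7.15 to 7.92 in the macrophage groups, against at most 5.05 and 3.2 in the lines. Flt3, Zbtb46, Xcr1 and Cd209a averaged levels near those of the lines. Whether the macrophage cultures held dendritic cells, and the part of these changes in the macrophage results, was not tested. In Bm12.4 media, replicates 1 and 2 lay below replicates 3 and 4 for all 5 members, so values are also given for each pair of replicates where they move a result.

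Cmpk2 had like levels with supernatant and in media in C57epi.1, while it was strongly raised in Bm12.4 and macrophages. In C57epi.1 its log2 levels were 3.95, 3.43, 3.75 and 4.21 with supernatant, against 4.12, 3.75, 3.79 and 3.9 in media. The groups overlapped, and the difference was −0.06 (SE 0.27, 95% interval −0.61 to 0.5). Levels this low cannot be told from background, since no detection call was used. In bulk RNA, fewer expressing cells and less RNA per cell cannot be told apart.

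In Bm12.4, Cmpk2 had levels of 10.71, 10.38, 10.34 and 10.24 with supernatant, against 4.54, 4.27, 5.59 and 5.88 in media. Every supernatant array lay above every media array, and media replicates 3 and 4 were above replicates 1 and 2. Cmpk2 rose by 5.35 on the log2 scale (SE 0.27, 40.7-fold, adjusted p = 8.87e-13 by limma), or by 6.14 within replicates 1 and 2 and 4.56 within replicates 3 and 4. In macrophages it had 9.8, 9.98, 10.68 and 10.59 with supernatant, against 5.37, 5.57, 5.5 and 5.36 in media. Here too the groups were far apart, with a rise of 4.81 (SE 0.27, 28.1-fold, adjusted p = 7.18e-12 by limma).

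Ordered by mean, Cmpk2 stood at 10.42 ± 0.2 (SD, n = 4) in Bm12.4 and 10.26 ± 0.44 in macrophages with supernatant, which overlapped. Next came macrophages in media at 5.45 ± 0.1 and Bm12.4 in media at 5.07 ± 0.78, which overlapped too. C57epi.1 was lowest, with overlapping values of 3.84 ± 0.33 with supernatant and 3.89 ± 0.17 in media.

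**Figure D1:**
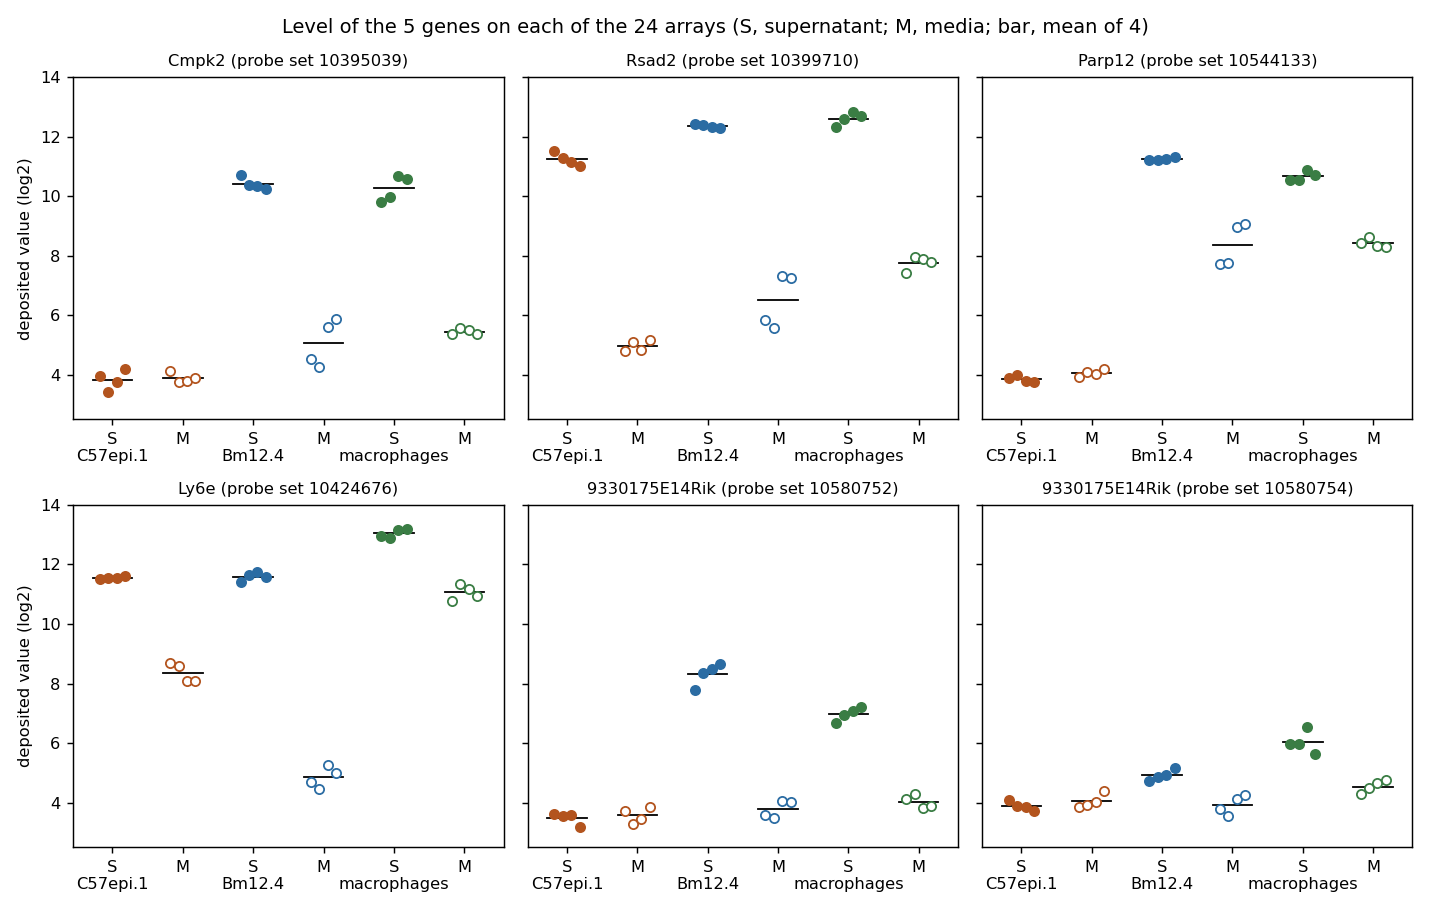
Each panel plots the deposited log2 value of a probe set on 24 arrays, with filled points for supernatant (S), open points for media (M) and a bar at the mean of 4. C57epi.1 points of Cmpk2, Parp12 and both 9330175E14Rik probe sets lie between 3.19 and 4.38 in both conditions, whereas those of Rsad2 lie at 11.02 to 11.53 with supernatant and 4.79 to 5.18 in media.

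Rsad2, the neighbour of Cmpk2, was among the strongly raised genes in all 3 kinds of cell. In C57epi.1 its levels were 11.53, 11.28, 11.13 and 11.02 with supernatant, against 4.79, 5.09, 4.83 and 5.18 in media. The difference of 6.27 (SE 0.27, 77-fold) ranked 11 from the largest among the 65 genes made up of the 5 members and 60 listed interferon-stimulated genes. The supernatant arrays were therefore far above the media arrays in the line where Cmpk2 overlapped.

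In Bm12.4, Rsad2 had 12.43, 12.39, 12.31 and 12.29 with supernatant, against 5.85, 5.56, 7.32 and 7.26 in media. It rose by 5.86 (SE 0.27, 58-fold, adjusted p = 2.59e-13 by limma), and the media arrays again split into replicates 1 and 2 below replicates 3 and 4. Its rise was 6.71 within replicates 1 and 2 and 5.01 within replicates 3 and 4. In macrophages it had 12.31, 12.59, 12.82 and 12.68 with supernatant, against 7.42, 7.94, 7.89 and 7.77 in media. Macrophages in media already held more than either line in media, and the rise was 4.85 (SE 0.27, 28.7-fold, adjusted p = 9.38e-12 by limma).

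By mean, Rsad2 was highest in macrophages with supernatant (12.6 ± 0.22, SD, n = 4) and in Bm12.4 with supernatant (12.36 ± 0.07), whose arrays overlapped. C57epi.1 with supernatant came next at 11.24 ± 0.22. Macrophages (7.76 ± 0.23), Bm12.4 (6.5 ± 0.92) and C57epi.1 (4.97 ± 0.19) in media followed, each with its arrays below those of the group before it.

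Set against each other, the neighbours changed alike in macrophages and in Bm12.4 and apart in C57epi.1. The change of Cmpk2 minus that of Rsad2 was −6.32 in the C57epi.1 line, −0.51 in Bm12.4 and −0.03 in macrophages. These are differences of changes, since the levels of 2 probe sets have no common scale. The C57epi.1 value rests on the changes used to group these genes and is a description.

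The same held array by array. In C57epi.1 each supernatant array was 6.05 to 6.56 above the media mean for Rsad2, and −0.46 to 0.32 from it for Cmpk2. In Bm12.4 the distances were 5.79 to 5.93 for Rsad2 and 5.17 to 5.64 for Cmpk2. In macrophages they were 4.56 to 5.07 for Rsad2 and 4.35 to 5.23 for Cmpk2. Among Bm12.4 media arrays, both genes were below their mean in replicates 1 and 2 (by 0.53 and 0.8 for Cmpk2, 0.65 and 0.94 for Rsad2) and above it in replicates 3 and 4 (by 0.52 and 0.81, and by 0.82 and 0.76). In Bm12.4 media, then, the neighbours moved together, but so did Parp12, 9330175E14Rik and Ly6e, so this is not particular to the pair.

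**Figure D2:**
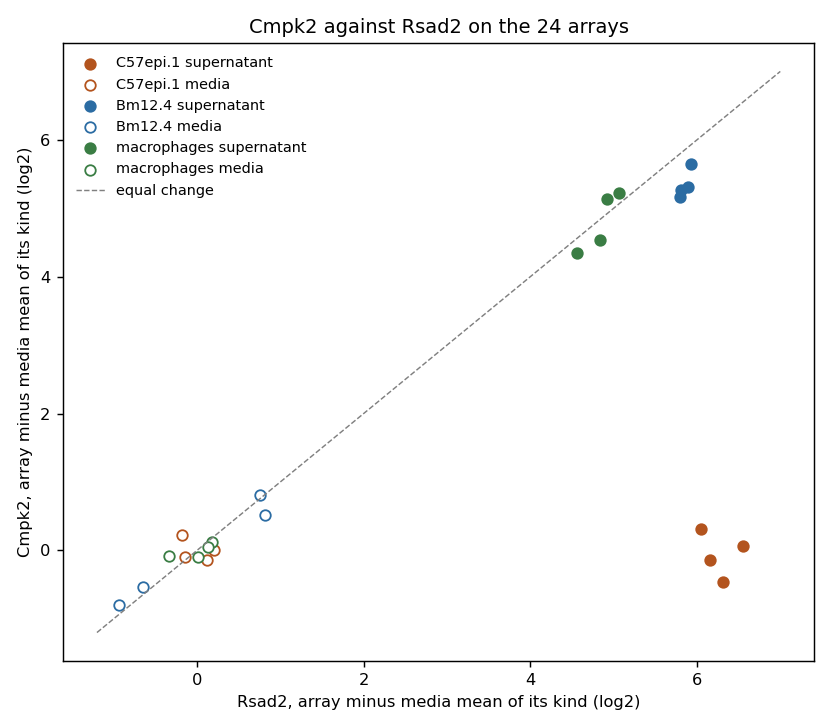
Each point is an array, placed by its distance in log2 units from the media mean of its kind of cell, for Rsad2 on the horizontal axis and Cmpk2 on the vertical axis, with the dashed line at equal change. Macrophage and Bm12.4 supernatant arrays lie near the line, and the 4 C57epi.1 supernatant arrays lie at 6.05 or more for Rsad2 and at most 0.32 for Cmpk2.

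On either side of this pair, limma called no change in the nearest genes with a probe set. Rnf144a differed by −0.08 in the C57epi.1 line, −0.05 in Bm12.4 and 0.03 in macrophages (adjusted p = 0.608, 0.831 and 0.934 by limma). Gm9866 and Sox11, on the other side, differed by −0.15 to 0.2 over the 3 kinds of cell (lowest adjusted p = 0.249 by limma). Beyond Rnf144a, Id2, an inhibitor of basic helix-loop-helix factors, fell in C57epi.1 by 1.9 (adjusted p = 1.29e-06), rose in macrophages by 0.77 (adjusted p = 0.0211), and differed by −0.25 in Bm12.4 (adjusted p = 0.627), all by limma.

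Parp12 lay below the array medians of 5 to 5.19 in C57epi.1 whatever the treatment, and well above them in the other cells even in media. Its C57epi.1 levels were 3.89, 3.99, 3.79 and 3.76 with supernatant, against 3.94, 4.11, 4.02 and 4.21 in media. The arrays overlapped, with a difference of −0.21 (SE 0.21, 95% interval −0.65 to 0.22). Within replicates 1 and 2 the difference was −0.09, and within replicates 3 and 4 it was −0.34, so neither pair of replicates showed a rise. As for Cmpk2, levels this low cannot be told from background, so the flat values may reflect a lack of signal.

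In Bm12.4, Parp12 had 11.21, 11.21, 11.25 and 11.31 with supernatant, against 7.73, 7.75, 8.95 and 9.05 in media. It rose by 2.88 (SE 0.21, 7.34-fold, adjusted p = 8.63e-10 by limma), a smaller change than that of Cmpk2 in these cells but one to a tightly grouped level. The rise was 3.47 within replicates 1 and 2 and 2.28 within replicates 3 and 4. In macrophages it had 10.54, 10.55, 10.88 and 10.7 with supernatant, against 8.41, 8.62, 8.32 and 8.29 in media. The groups did not overlap, and the rise was 2.26 (SE 0.21, 4.78-fold, adjusted p = 4e-08 by limma).

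By mean, Parp12 was highest in Bm12.4 with supernatant (11.25 ± 0.05, SD, n = 4), above macrophages with supernatant (10.67 ± 0.16). Macrophages (8.41 ± 0.15) and Bm12.4 (8.37 ± 0.73) in media overlapped. C57epi.1 lay well below, with overlapping values of 3.86 ± 0.1 with supernatant and 4.07 ± 0.12 in media.

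Other PARP genes did respond in C57epi.1. Of 14 measured relatives on the list, limma called 8 higher and 0 lower there, beside 8.85% higher and 10.4% lower among all genes. Parp14, a macrodomain ADP-ribosyltransferase, rose by 5.12 and Parp9, which acts with the ubiquitin ligase Dtx3l, rose by 3.48. In Bm12.4, where 4.54% of all genes were higher and 2.7% lower, 6 of the 14 rose and 0 fell. Parp14 rose there by 3.5 and Parp11, a mono-ADP-ribosyltransferase, by 3.25. In macrophages, where 6.13% of all genes were higher and 6.31% lower, 8 rose and 0 fell. Parp14 rose there by 2.88 and Parp10, another mono-ADP-ribosyltransferase, by 2.48. The list's median changes were 0.61, 0.5 and 0.59 in C57epi.1, Bm12.4 and macrophages, beside −0.05, −0.05 and −0.02 over all genes.

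The long non-coding RNA 9330175E14Rik was flat in C57epi.1 on both of its probe sets. On probe set 10580752 it had levels of 3.61, 3.57, 3.59 and 3.19 with supernatant, against 3.72, 3.27, 3.44 and 3.86 in media. The arrays overlapped, and the difference was −0.08 (SE 0.18, 95% interval −0.46 to 0.29). Probe set 10580754 overlapped too, at 3.71 to 4.08 with supernatant and 3.87 to 4.38 in media.

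In Bm12.4, probe set 10580752 had 7.77, 8.37, 8.48 and 8.66 with supernatant, against 3.58, 3.49, 4.07 and 4.01 in media. It rose by 4.53 (SE 0.18, 23.1-fold, adjusted p = 1.56e-14 by limma), from media levels that overlapped those of C57epi.1. These media levels cannot be told from background either, so the true changes of this RNA may be larger, and its difference between Bm12.4 and macrophages carries the same limit. In macrophages it had 6.69, 6.96, 7.07 and 7.2 with supernatant, against 4.12, 4.29, 3.83 and 3.9 in media. The rise there was 2.95 (SE 0.18, 7.7-fold, adjusted p = 3.69e-11 by limma).

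Probe set 10580754, which has the lower mean and was tested in the fit over all probe sets with a single symbol, gave the same directions and other sizes. It had 4.72, 4.88, 4.92 and 5.16 in Bm12.4 with supernatant, against 3.8, 3.55, 4.14 and 4.25 in media, a rise of 0.99 (SE 0.17, adjusted p = 0.000468 by limma). In macrophages it had 5.98, 5.97, 6.54 and 5.62 with supernatant, against 4.28, 4.48, 4.66 and 4.76 in media, a rise of 1.48 (SE 0.17, adjusted p = 1.25e-06 by limma). The larger change was thus in Bm12.4 on one probe set and in macrophages on the other. The annotation pairs them with different transcript records, so they may not report the same RNA.

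By mean on probe set 10580752, Bm12.4 with supernatant (8.32 ± 0.39, SD, n = 4) was above macrophages with supernatant (6.98 ± 0.22). Macrophages (4.04 ± 0.21) and Bm12.4 (3.79 ± 0.29) in media overlapped, as did Bm12.4 and C57epi.1 (3.57 ± 0.27) in media. C57epi.1 with supernatant stood at 3.49 ± 0.2.

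In RefSeq, 9330175E14Rik overlaps the start of Nlrc5, the transactivator of MHC class I genes, on chromosome 8. Nlrc5 was looked up after the values of the RNA were seen. In C57epi.1 it had 8, 8, 8.1 and 7.94 with supernatant, against 8.26, 8.81, 8.42 and 8.24 in media, and fell by 0.42 (adjusted p = 0.0223 by limma). It rose by 1.03 in Bm12.4 (adjusted p = 5.13e-06) and by 1.22 in macrophages (adjusted p = 2.85e-07, all by limma). The C57epi.1 supernatant arrays of Nlrc5 all lay below the media arrays, and in the other cells they all lay above them.

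Ly6e was higher with supernatant in all 3 kinds of cell, by sizes that differed widely. In C57epi.1 it had 11.51, 11.56, 11.53 and 11.61 with supernatant, against 8.69, 8.58, 8.09 and 8.09 in media. The groups did not overlap, and the difference was 3.19 (SE 0.16, 9.13-fold), or 2.9 within replicates 1 and 2 and 3.48 within replicates 3 and 4. Among the 65 members and listed genes this change ranked 41 from the largest.

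In Bm12.4, Ly6e had 11.41, 11.64, 11.76 and 11.57 with supernatant, against 4.71, 4.46, 5.27 and 5.01 in media. The rise of 6.73 (SE 0.16, 106-fold, adjusted p = 3.11e-18 by limma) ranked 1 of the same 65. In macrophages it had 12.95, 12.9, 13.15 and 13.2 with supernatant, against 10.77, 11.36, 11.17 and 10.95 in media. The rise there was 1.99 (SE 0.16, 3.97-fold, adjusted p = 3.69e-09 by limma), from the highest media level of the 3 kinds.

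The order of Ly6e by mean was macrophages with supernatant (13.05 ± 0.15, SD, n = 4), then Bm12.4 (11.6 ± 0.15) and C57epi.1 (11.55 ± 0.04) with supernatant, whose arrays overlapped. In media it was macrophages (11.06 ± 0.26), C57epi.1 (8.36 ± 0.32) and Bm12.4 (4.86 ± 0.35), with no overlap between neighbours. The lines therefore held like levels of Ly6e with supernatant and unlike levels in media, so its smaller change in C57epi.1 went with a higher starting value.

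Some Ly6 relatives were also called. Of 12 measured on the list, limma called 2 higher and 1 lower in C57epi.1, with Ly6i at 1.7 and Ly6f at −1.25, where 8.85% of all genes were higher and 10.4% lower. In Bm12.4, 3 rose and 0 fell, with Ly6i at 1.63 and Lynx1, a modulator of nicotinic receptors, at 1.23, where 4.54% of all genes were higher and 2.7% lower. In macrophages 3 rose and 1 fell, with Ly6i at 3.99 and Ly6g, a granulocyte marker, at 1.55, where 6.13% of all genes were higher and 6.31% lower. Members of this family are alike in sequence and may share signal.

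**Figure D3:**
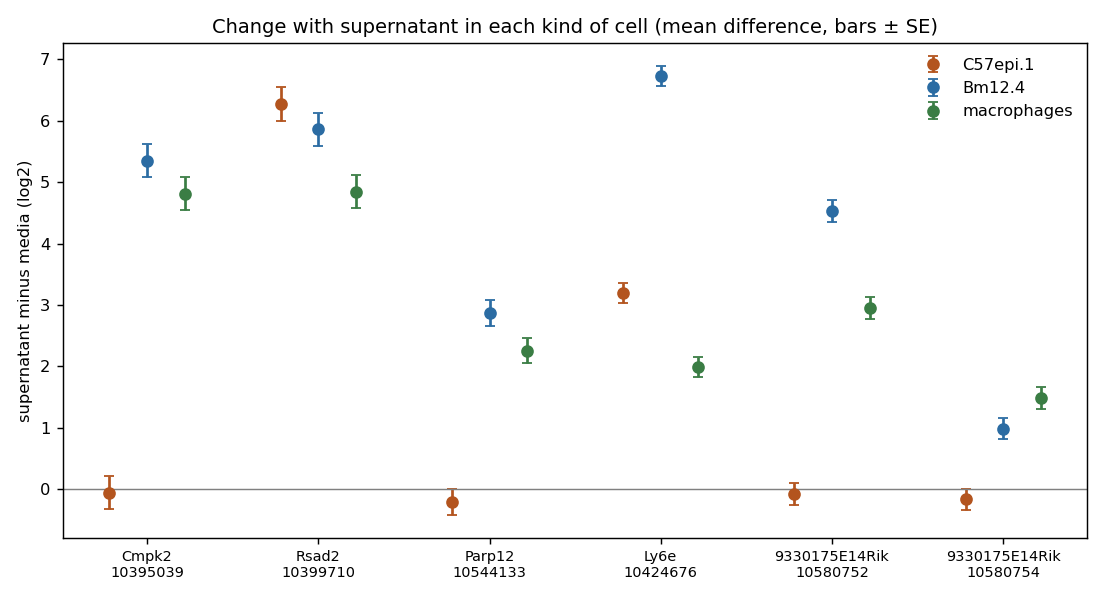
Points are the mean change with supernatant in log2 units, supernatant minus media, for each of 6 probe sets in C57epi.1, Bm12.4 and macrophages, with bars of 1 SE on either side. C57epi.1 points lie at or just below 0 for Cmpk2, Parp12 and both 9330175E14Rik probe sets, at 3.19 for Ly6e and at 6.27 for Rsad2.

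Counted together, 5 of 5 members were called higher with supernatant in Bm12.4, where 4.54% of all genes were higher and 2.7% lower, and 5 of 5 in macrophages, where 6.13% were higher and 6.31% lower (limma, adjusted p under 0.05). In both, the supernatant arrays lay above the media arrays without overlap for all 5, as for 5.18% of all genes in Bm12.4 and 9.33% in macrophages. In C57epi.1, the contrast on which they were grouped, 2 of 5 lay so, beside 9.2% of all genes, and 3 of 5 overlapped. The values of Bm12.4 and macrophages may also have been in view when the genes were grouped. The replicates are not stated to be separate cultures, so p-values cover only the spread from array to array, which may be technical.

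Whether the rise differed between Bm12.4 and macrophages was tested as the difference of the changes. Ly6e rose more in Bm12.4, by 6.73 against 1.99 in macrophages, and the changes differed by 4.75 (SE 0.23, adjusted p = 2.13e-12). On its tested probe set 9330175E14Rik also rose more in Bm12.4, by 4.53 against 2.95 in macrophages, and the changes differed by 1.59 (SE 0.26, adjusted p = 0.000253), while probe set 10580754 gave −0.5 (SE 0.25, adjusted p = 0.329). So 2 of 5 members were called higher in this comparison by limma, beside 3.19% of all genes, and 0 lower, beside 2.45%. The name given to the group holds for Ly6e only beside Bm12.4. Its Bm12.4 rise may therefore have been used in the grouping, and its test may not be separate from that choice.

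For the other three, limma called no difference between Bm12.4 and macrophages, and the intervals allow sizeable ones. The difference was 1.01 for Rsad2 (95% interval 0.21 to 1.81, adjusted p = 0.156), 0.62 for Parp12 (−0.0002 to 1.24, adjusted p = 0.312) and 0.54 for Cmpk2 (−0.25 to 1.32, adjusted p = 0.567). Within replicates 1 and 2 these were 1.94, 1.44 and 1.72 and were called (adjusted p = 0.00065, 0.000204 and 0.00198). Within replicates 3 and 4 they were 0.09, −0.21 and −0.65 and were not called (adjusted p = 0.847, 0.532 and 0.0829 by limma). Rsad2 was also called without Bm12.4 media replicate 3 (1.29, adjusted p = 0.0289) or 4 (1.27, adjusted p = 0.038).

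Most listed interferon-stimulated genes rose in C57epi.1. Of 65 listed interferon-stimulated genes, 60 were measured. Of these, limma called 58 higher and 0 lower in C57epi.1, 57 higher and 1 lower in Bm12.4, and 57 higher and 1 lower in macrophages. Of all genes, 8.85% were higher and 10.4% lower in C57epi.1. In Bm12.4 these shares were 4.54% and 2.7%, and in macrophages 6.13% and 6.31%. The list's median change was 3.56, 3.01 and 2.55, beside −0.05, −0.05 and −0.02 over all genes. The list was written with earlier results of these data known.

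Its largest rises in C57epi.1 were in the interferon-inducible GTPases Gbp3 (7.79) and Iigp1 (7.53) and in Trim30a (7.35), a Trim family gene. In Bm12.4 they were in Trim30a (6.44), Iigp1 (6.4) and the helicase Ddx60 (5.64). In macrophages they were in Iigp1 (7.59) and the antiviral Ifit2 (6.32) and Ifit3 (6.16). The smallest changes of listed genes in C57epi.1 were in Ifi27 (−0.3, adjusted p = 0.704), Ifi44l (−0.03, adjusted p = 0.892) and Epsti1, which rose by 0.72 (adjusted p = 0.000234, by limma). Ifi44l was not called in Bm12.4 (−0.07, adjusted p = 0.792) or macrophages (−0.05, adjusted p = 0.869) either. Ifi27 fell in Bm12.4 by 1.58 and in macrophages by 2.01 (adjusted p = 0.0138 and 0.000941, all by limma).

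Ifi27 and Ifi44l were raised in none of the 3 kinds of cell, whereas Cmpk2, Parp12 and 9330175E14Rik rose in Bm12.4 and macrophages. Ifi44l averaged 3.05 to 3.15 in every group, which cannot be told from background, so its flat values may reflect a lack of signal. Of the 60 listed genes, 51 were at least 1 log2 unit higher with supernatant in both Bm12.4 and macrophages, and 2 of those 51, Ifih1 and Trim34a, changed by less than 1 in C57epi.1 (0.95 and 0.86). All 5 members met the first condition, and 3 of the 5 changed by less than 1 in C57epi.1. Of 19938 genes, 193 met the first condition, and 25 of the 193 changed by less than 1 in C57epi.1. These counts use the contrast that grouped the members and are a description.

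**Figure D4:**
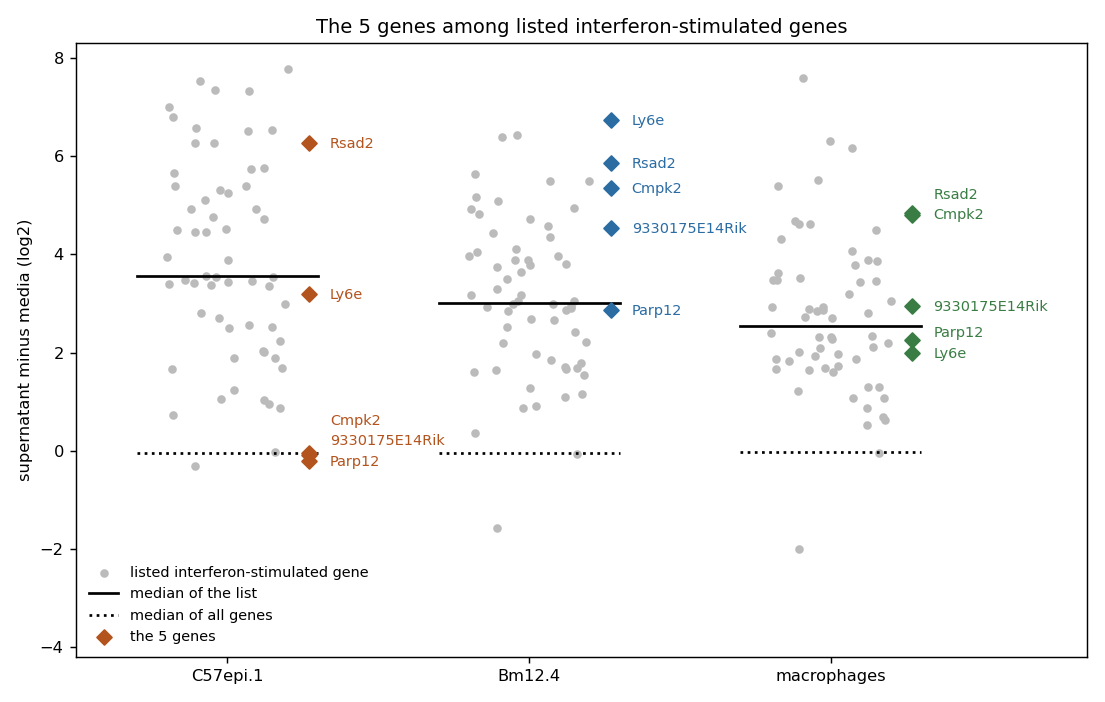
Grey points are the change with supernatant, in log2 units, of 60 listed interferon-stimulated genes, diamonds are the 5 members, solid lines the list's median and dotted lines the median of all genes, for each kind of cell. In C57epi.1 the list's median is 3.56 and Cmpk2, 9330175E14Rik and Parp12 lie at the median of all genes or just below it, whereas in Bm12.4 and macrophages the 5 members lie between 1.99 and 6.73.

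Several genes on a list of interferon receptors and signalling genes rose in each kind of cell. Of 15 measured, 8 rose and 3 fell in C57epi.1, where 8.85% of all genes were higher and 10.4% lower. In Bm12.4, 8 rose and 0 fell (4.54% and 2.7% of all genes), and in macrophages 7 rose and 1 fell (6.13% and 6.31%). Of the receptor chains, Ifnar2 rose in C57epi.1 by 0.63 and in Bm12.4 by 0.8. In macrophages no receptor chain was called higher, and Ifngr1 fell by 0.8. The factor Irf1 rose by 3.55 in the C57epi.1 line, 2.41 in Bm12.4 and 3.87 in macrophages, and Stat2 rose by 3.39, 3.17 and 2.94 in the same cells. Both are also among the listed interferon-stimulated genes. In C57epi.1 the fallers were the type I receptor chain Ifnar1 (−0.54, adjusted p = 0.00328), Tyk2 (−0.44, adjusted p = 0.00968) and Ifngr1 (−0.33, adjusted p = 0.0133, all by limma). Ifnar1 differed by 0.07 in Bm12.4 and −0.07 in macrophages and was not called in either.

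Genes of nucleotide supply are related to Cmpk2 by role. Of 19, limma called 2 higher and 1 lower in C57epi.1 (8.85% and 10.4% of all genes), 1 higher in Bm12.4 (4.54% of all genes) and 2 higher in macrophages (6.13% of all genes), counts near those shares. Samhd1, which encodes an enzyme that breaks down deoxynucleotides, rose by 1.83, 2.95 and 1.53 in C57epi.1, Bm12.4 and macrophages. Slc25a33, a mitochondrial pyrimidine nucleotide carrier, rose in C57epi.1 by 2.23, and the deoxycytidine kinase gene Dck rose in macrophages by 2.38. Cmpk1, the cytosolic counterpart of Cmpk2, was not called in C57epi.1, Bm12.4 or macrophages (−0.1, −0.3 and −0.15, adjusted p = 0.545, 0.06 and 0.391).

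Among each other over the 24 arrays, the members most alike were Cmpk2 and 9330175E14Rik (Pearson's r = 0.965), followed by Cmpk2 and Parp12 (0.89), while Cmpk2 and Rsad2 had 0.73. The genes most like each member were then taken from outside the 5, leaving out Riken, predicted, LOC and Gm genes. The arrays share their cell kind and treatment, so r is a description of the 6 groups. The 24 arrays include those of C57epi.1, on which the members were grouped. Likeness among members flat there, and their distance from Rsad2, is therefore no separate evidence. Of these other genes, Cmpk2 was most like the immunoproteasome subunit gene Psmb9 (r = 0.94), Ifih1 (0.92), which encodes an RNA sensor, and Nlrc5 (0.92). Rsad2 was most like Herc6 (0.99), Adar (0.99) and Oas3 (0.99), and these changed by 5.4, 2.01 and 4.94 in C57epi.1.

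Parp12 was most like Ifih1 (0.98), Il13ra1 (0.98) and Serpinb8 (0.96). For 9330175E14Rik they were Tnip1 (0.93), Pla1a (0.89) and Rnf135 (0.88), which differed by 0.02, 0.41 and 0.29 in C57epi.1 and by 1.53, 1.68 and 1.5 in Bm12.4. For Ly6e they were Arel1, Samhd1 and Nampt (each 0.93). The neighbours Cmpk2 and Rsad2 thus had no gene in common among these, and Cmpk2 and Parp12 shared Ifih1.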

How the data were processed

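RNA of the 24 samples (100 ng each, biotin label) was measured on arrays. The deposited values are log2 signals, 1 per probe set and array, made by the authors with GCOS, Partek 6.2 and RMA, per the submitters' processing notes; for other versions, the order of steps and the genome build, the sources used here give nothing. Array medians were 5 to 5.19, and no detection calls were used. The platform's annotation gave 21789 probe sets a single symbol, 1621 several and 5443 none. Per symbol the probe set with the highest mean was tested (19938 genes). With 4 arrays a group, their number limits the precision.

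Changes were fitted with limma 3.58.1 (R 4.3.3) on all arrays with a mean per group (18 residual and 3.62 prior degrees of freedom). P-values are two-sided, adjusted by Benjamini-Hochberg over all genes, and called under 0.05. The fit was tested on simulated data with noise independent between arrays. That simulation held no pairing by replicate number, so it does not bear on the pairing described below. The members and lists were chosen with earlier results of these data known. Named besides the members were the 3 largest rises of the interferon list per kind of cell, its 3 smallest changes in C57epi.1, the 2 largest called changes of other lists (cell type markers aside), the 3 genes outside the members most like each, and 2 neighbours on each side of the Rsad2-Cmpk2 pair; other names were added after their values were seen. Same-numbered supernatant and media arrays deviated together for all 4 numbers in Bm12.4 (correlations across genes of 0.23 to 0.68). In C57epi.1 the correlations were 0.24, −0.14, 0.17 and 0.4 for numbers 1 to 4, so 3 of 4 exceeded 0.1, and in macrophages they were −0.13 to 0.12, with 1 of 4 above 0.1. By a rule that all 4 must exceed 0.1, only Bm12.4 counted as paired by number. The main fit left this pairing out, so the Bm12.4 standard errors and p-values given above are unpaired. Fits with a replicate block were run as alternatives. Alternatives are given in the closing section.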

Additional observations from a re-analysis of the deposited data

Results flagged for a closer look

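In C57epi.1 with supernatant, replicate 4 had the lowest value of 9330175E14Rik on probe set 10580752, 3.19, against 3.57 to 3.61 in replicates 1 to 3, and stood far from the others for the range of its group. It was the only such array among 36 groups of 4 examined, and chance gives about 1 in 20 groups.

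The rise of Ly6e was larger in Bm12.4 than in macrophages by 4.75, and that of 9330175E14Rik by 1.59, each by a test of the difference itself (limma, adjusted p = 2.13e-12 and 0.000253). For 9330175E14Rik this rests on probe set 10580752, since probe set 10580754 gave −0.5, and on media levels that cannot be told from background. The Bm12.4 rise of Ly6e may have been used in the grouping, so its test may not be separate from that choice.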

How the results depend on the processing

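The rises of all 5 members in Bm12.4 and in macrophages were called under every alternative run, with effects of 2.28 to 6.94 in Bm12.4 and 1.86 to 5.21 in macrophages. One exception in coverage is the filter on low values, which removed 9330175E14Rik. Leaving out each array in turn changed 0 of these calls. With the replicate block, 1650, 2744 and 4345 genes were called in Bm12.4, macrophages and C57epi.1, against 1445, 2482 and 3832 without it. A block within Bm12.4 alone, added after seeing the data, called 1075 genes and kept the 5 members. Neither block changed the call of a member. Counts of all genes moved by over 1.5 times in 5 cases. Bm12.4 had 786 with its 8 arrays alone and 3189 with replicates 3 and 4 only. C57epi.1 had 2245 with replicates 1 and 2 only and 5830 with replicates 3 and 4 only. The difference between Bm12.4 and macrophages had 1834 in place of 1124 with replicates 3 and 4 only. The cause was not tested. Listed interferon-stimulated genes called higher stayed between 54 and 58 of 60.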

Other observations

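Of the 193 genes at least 1 log2 unit higher with supernatant in both Bm12.4 and macrophages, 10 changed by less than 0.5 in either direction in C57epi.1. They were named after their values were seen, and they are Cmpk2, Parp12, 9330175E14Rik, Nlrc5, Stoml1, Serpinb9b, Il13ra1, Psmb9, Ccnyl1 and Tmem243. Psmb9, which encodes an immunoproteasome subunit, differed by 0.35 in the C57epi.1 line, 4.44 in Bm12.4 and 2.19 in macrophages. Il13ra1, a receptor chain for interleukin-13, differed by 0.17, 1.12 and 1.62 in the same cells. The granzyme inhibitor family member Serpinb9b differed by 0.07, 1.16 and 1.31, and its change in Bm12.4 was not called (adjusted p = 0.0714 by limma).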
